A study of Mus musculus with 4 samples.

Results

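The poly(A) tail lengths of wild-type J1 mouse embryonic stem cells were described gene by gene from 2 direct RNA nanopore libraries, called WT 1 and WT 2 here. They are 2 of the 4 libraries of a study that set wild-type cells beside cells lacking Mov10, an RNA helicase; the 2 knockout libraries are not used here. Both libraries were labelled wild-type embryonic stem cells of J1 background, grown in serum with the cytokine LIF and given no treatment. The labels do not say whether the libraries came from separate cultures, so p-values measure only the spread between these libraries, which may be technical. All reads labelled as either library with a tail above 0 nucleotides (nt) were kept, which gave 790668 of the 1903922 reads in the table. WT 1 had 439535 reads on 11209 gene symbols, and WT 2 had 351133 reads on 11013. The gene analysis covered the 2022 symbols with at least 20 reads in each library, of 12527 symbols with any read, and these held 85.1% of the reads.

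Most messenger RNAs receive a poly(A) tail in the nucleus, which poly(A)-binding proteins cover and which deadenylases such as the Ccr4-Not complex shorten in the cytoplasm. Messages transcribed inside mitochondria are tailed by a separate poly(A) polymerase of that organelle. In direct RNA sequencing the native strand passes through a pore, so a tail length is estimated for each molecule and is read together with the transcript it belongs to. The RNA had been selected on oligo(dT) beads, which bind tails, so molecules with very short tails are seen only as far as they passed that step.

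The marker genes fitted the labelled cell type. All 14 embryonic stem cell markers had reads in both libraries, with summed levels of 10063 and 10401 reads per 1000000 reads (RPM) in WT 1 and WT 2. Of 8 fibroblast markers 6 had no read, among them Col1a1, Col1a2 and Col3a1, and the summed levels were 9.10 and 8.54 RPM. The 7 endoderm and 4 mesoderm markers summed to at most 6.83 RPM in a library. The 4 neuroectoderm markers reached 29.6 and 71.2 RPM, with Pax6, Sox1 and Neurog2 at 0. Mov10 itself had 26 reads in WT 1 and 14 in WT 2, with median tails of 77.2 and 100.4 nt, and so was below the read minimum.

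Over single reads the median tail was 97.3 nt in WT 1 and 105.6 nt in WT 2. The middle of the distribution was wide: the quartiles were 65.0 and 136.9 nt in WT 1 and 68.2 and 147.9 nt in WT 2. Tails of 200 nt or more made up 6.06% of reads in WT 1 and 7.81% in WT 2. WT 2 had both more long tails and more tails under 30 nt, the latter being 3.02% of its reads against 2.35% in WT 1.

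Mitochondrial reads, counted here as those of symbols that start with mt-, formed a narrow peak of their own within this distribution. Reads of 5 further symbols on the same transcripts, described below, stayed among the other symbols, so the mitochondrial shares may be too low. The reads of mt- symbols were 4.16% of the reads in WT 1 and 3.24% in WT 2, and their median was 55.8 nt in WT 1 and 56.4 nt in WT 2. Their interquartile range was 20.5 nt in WT 1 and 20.1 nt in WT 2, whereas that of all other symbols was 71.3 and 78.6 nt. Tails of 150 nt or more were 0.372% of the mitochondrial reads in WT 1 and 0.678% in WT 2, against 19.6% and 24.7% of the other reads. The library medians of all reads lay 8.27 nt apart and those of the mitochondrial reads 0.56 nt apart, a contrast with no test, since there is 1 library on each side.

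**Figure D1:**
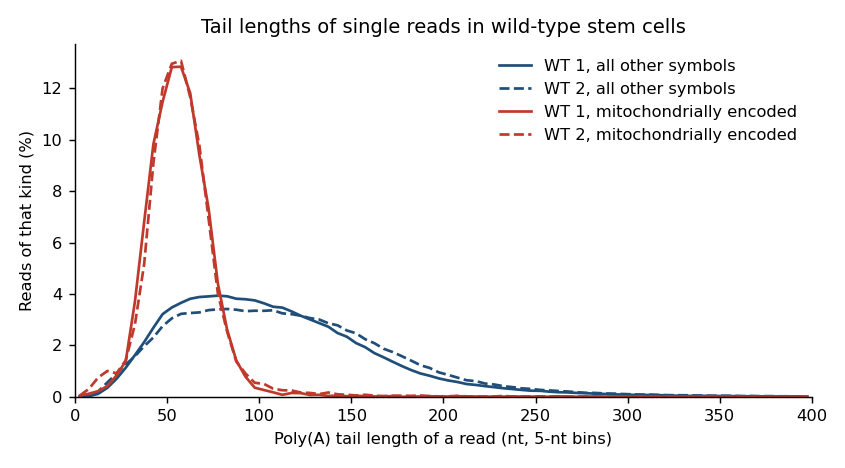
Share of reads (%, y axis) by poly(A) tail length (nt, x axis, bins of 5 nt). Reads of symbols that start with mt- are in red and all other reads in blue, with WT 1 as solid and WT 2 as dashed lines. The x axis ends at 400 nt. The red curves peak near their medians of 55.8 and 56.4 nt and lie on each other, and the blue curves are broad, with that of WT 2 shifted to longer tails.

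Mitochondrial messages were not the main source of the shortest tails. Among reads under 30 nt those of mt- symbols were 5.33% in WT 1 (95% Wilson interval 4.91 to 5.78%) and 4.75% in WT 2 (4.36 to 5.17%). The remainder came from other symbols, among which the 5 further symbols on mitochondrial transcripts are again counted. The intervals cover counting error only. Within the mitochondrial reads the share under 30 nt was 3.01% in WT 1 and 4.44% in WT 2, and within the other reads it was 2.32% and 2.97%.

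Per gene, the median tail was 102.4 nt for the middle gene of WT 1 and 109.4 nt for the middle gene of WT 2, a mean of 105.9 nt ± 4.99 (SD, n = 2). Genes were packed closely around this value. The mean of a gene's medians in the 2 libraries ran from 89.0 nt at the 10th percentile to 128.6 nt at the 90th. It was under 70 nt for 19 genes, from 70 to under 150 nt for 1980, and 150 nt or more for 23. The extremes were mt-Nd6 at 37.8 nt and Rif1 at 190.3 nt, a ratio of 5.04.

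The spread inside a gene was larger than the spread between genes. The interquartile range of the reads of 1 gene had a median of 73.7 nt in WT 1 and 76.1 nt in WT 2. The interquartile range of the gene medians was only 22.1 nt in WT 1 and 23.5 nt in WT 2. Genes with longer medians also had wider distributions, with a Spearman rho of 0.367 across the 2022 genes; both measures came from the same reads, and genes are not independent replicates.

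Each gene was then set against the middle gene of its own library. The value used was log2 of the gene's median tail minus the middle of these values over all genes in that library, so that the longer tails of WT 2 as a whole drop out. A gene was called shorter or longer where limma gave an adjusted p (Benjamini-Hochberg over the 2022 genes) under 0.05. By this rule 131 genes were shorter, which is 6.48% of those tested, and 103 were longer, which is 5.09%. All 234 lay on the same side in both libraries, which the rule made likely, as it calls genes on the mean of these same 2 libraries. The shorter calls ranged from -1.49 to -0.15 and the longer ones from 0.16 to 0.84 on the log2 scale.

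The calls depended on where zero was placed and on how the spread was set. Centring each library on the median of all its reads, not of its genes, moved the share of calls that were longer from 44.0% to 70.9%, and with the mean of log2 tail length in place of the median it was 55.1%. limma estimated no difference in spread between genes of equal read number and took it from the trend with read number alone, so a gene whose 2 libraries differed widely was given no larger error. As a count free of that model, 88 of the 131 shorter genes had exact 95% intervals of the median below the middle gene in both libraries, and 55 of the 103 longer genes had both intervals above it. Over all 2022 genes these counts were 140 below (6.92%) and 98 above (4.85%).

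**Figure D2:**
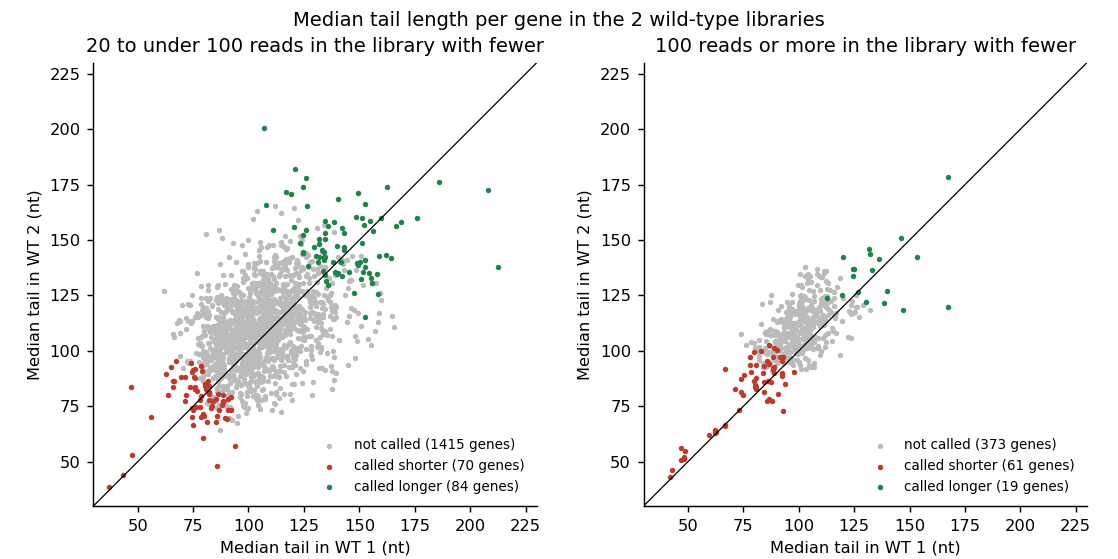
Median tail (nt) of each gene in WT 1 (x axis) and WT 2 (y axis), for genes with 20 to under 100 reads in the library with fewer (left, 1569 genes) and with 100 reads or more (right, 453 genes); the line marks equal values, red and green mark genes called shorter and longer. The cloud narrows with more reads, and in both panels more points lie above the line than below it.

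The libraries agreed in part on the order of the genes, and agreement followed read number. Spearman's rho between the gene medians was 0.496 over all 2022 genes, as a description without a test. It was 0.453 for the 1144 genes with 20 to under 50 reads in the library with fewer, 0.501 for the 425 with 50 to under 100, 0.647 for the 337 with 100 to under 500, and 0.637 for the 116 with 500 or more. The SD of the log2 difference between libraries in these classes was 0.281, 0.209, 0.162 and 0.099. At the read minimum, the 337 genes with 20 to 24 reads had an SD of 0.335 and the 557 genes just outside, with 15 to 19 reads, had 0.364.

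Tails of most genes were longer in WT 2. The median log2 gap was 0.09, and 65.1% of genes, or 81.0% of those with 500 reads or more, had the higher median there. The exact 95% intervals of the 2 libraries did not overlap for 158 genes (7.81%), and 152 of these were longer in WT 2. Among the 116 genes with 500 reads or more the intervals were apart for 45.7%, and for 34.5% even after both libraries were scaled to the same middle gene. Over these 116 genes the median gap between the libraries was 5.60 nt and the median interval was 6.5 nt wide. For part of them the intervals, which cover read sampling only, therefore did not span the difference between the libraries. With 2 libraries that difference cannot be tested.

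**Figure D3:**
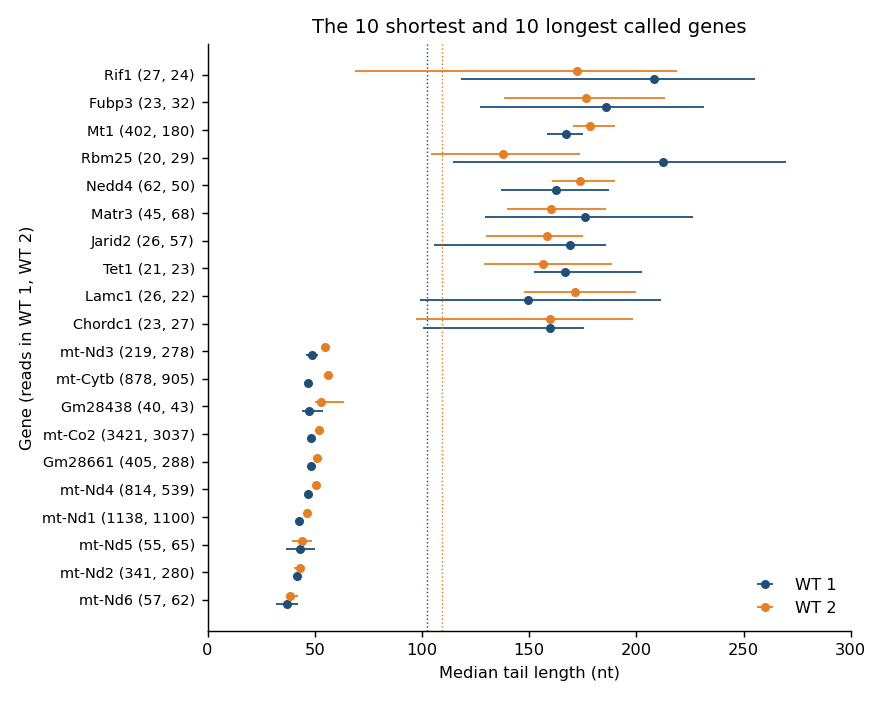
Median tail (nt, x axis) of the 10 called genes with the lowest and the 10 with the highest value relative to the middle gene (y axis, with read numbers in WT 1 and WT 2), as points with exact 95% intervals for WT 1 in blue and WT 2 in orange; dotted lines mark the middle gene of each library. The 10 shortest lie between 36.9 and 56.3 nt with narrow intervals, and the 10 longest, of which 9 have under 100 reads in each library, have wide ones.

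The short end was led by the mitochondrial genome. All 11 mitochondrially encoded messages with enough reads were called shorter (100% against 6.48% of all genes), as were all those measured in each alternative that kept any. Their list median was 46.7 nt in WT 1 and 52.0 nt in WT 2, which is 1.08 below the middle gene on the log2 scale. The 19 genes under 70 nt were these 11, another 5 symbols whose reads lay on the same mitochondrial transcripts, and 3 others.

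Among the mitochondrial messages the 6 that code for subunits of complex I, the NADH dehydrogenase of the respiratory chain, had mean medians from 37.8 to 51.7 nt. mt-Nd6 was the shortest, at 36.9 nt in WT 1 (57 reads) and 38.6 nt in WT 2 (62 reads), and 28.1% and 16.1% of its reads were under 30 nt. Its log2 value was -1.49 ± 0.11 (SE, n = 2; limma adjusted p = 5.45e-35). mt-Nd2 had 41.8 and 43.0 nt, mt-Nd5 43.3 and 44.2 nt, and mt-Nd1 42.7 and 46.2 nt in WT 1 and WT 2. mt-Nd4 had 46.7 and 50.6 nt and mt-Nd3 48.5 and 55.0 nt, so the complex I messages kept within a range of 16.3 nt in WT 2 and 11.6 nt in WT 1.

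The messages for cytochrome c oxidase and ATP synthase subunits reached higher. mt-Co2, a cytochrome c oxidase subunit, had 48.3 nt in WT 1 (3421 reads) and 52.0 nt in WT 2 (3037 reads), inside the complex I range. mt-Co1, the catalytic subunit of the oxidase and the message with the most reads over both libraries together, had 59.3 nt in WT 1 (6821 reads) and 62.0 nt in WT 2 (2972 reads). mt-Atp6 had 62.4 and 63.0 nt, and mt-Co3 66.6 nt in both libraries. mt-Cytb, of complex III, had 46.7 nt in WT 1 and 56.3 nt in WT 2, the widest gap among the 11. The order of mt-Nd6, mt-Co2, mt-Co1 and mt-Co3 was the same in both libraries, and the exact 95% intervals of mt-Co1 (59.0 to 59.8 nt in WT 1, 61.3 to 62.6 nt in WT 2) and mt-Co3 (65.9 to 67.1 nt and 66.0 to 67.4 nt) did not overlap. Other members changed places. mt-Nd5 lay above mt-Nd1 in WT 1 and below it in WT 2, and mt-Cytb lay below mt-Co2 in WT 1 and above it in WT 2.

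Spread within a gene also set these messages apart. The interquartile range of the reads lay between 14 and 18.2 nt for the 11 genes in WT 1 and between 13.2 and 23.4 nt in WT 2. Among the 2006 symbols other than these and the 5 described next the narrowest interquartile range was 30.4 nt in WT 1 and 31.1 nt in WT 2, so the groups did not overlap. As a description, the median among those 2006 symbols was 73.9 nt in WT 1 and 76.2 nt in WT 2.

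The 5 further symbols are named for predicted genes but all of their reads lay on transcripts on which a mitochondrial symbol had most reads. Gm28661 had 48.4 and 51.0 nt beside mt-Co2, and Gm28438 had 47.5 and 53.0 nt beside mt-Nd3. Gm29216 had 62.1 and 64.2 nt beside mt-Co1, Gm10925 had 62.9 and 63.4 nt beside mt-Atp6, and Gm28437 had 66.6 and 66.3 nt beside mt-Co3. Each lay within 2.74 nt of its mitochondrial partner in both libraries, and reads of these symbols and of the mitochondrial genes cannot be told apart.

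**Figure D4:**
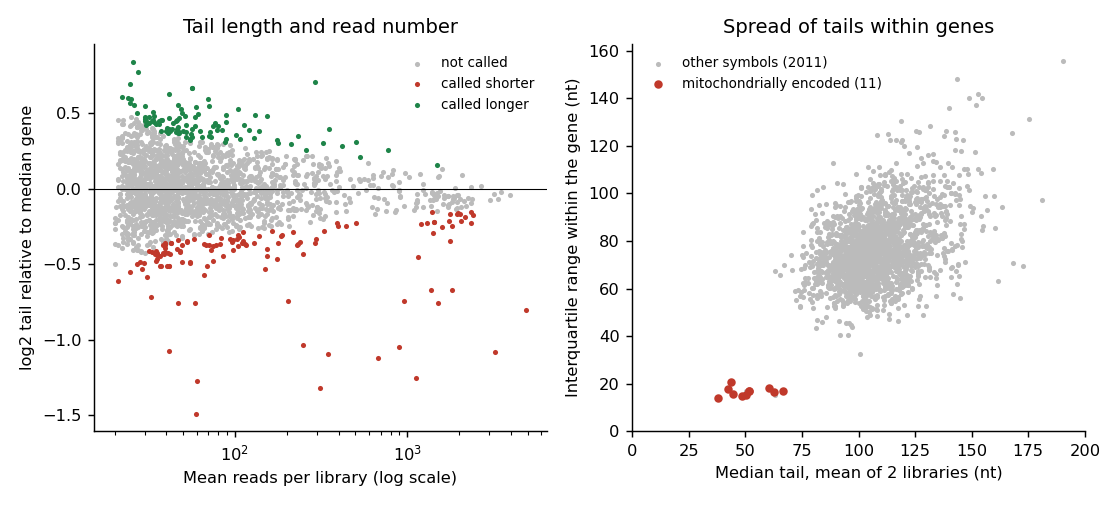
Left: log2 tail length relative to the middle gene (y axis) against mean reads per library (x axis, log scale), with genes called shorter in red and longer in green. Right: interquartile range of tails within a gene (nt, y axis) against the gene's median (nt, x axis), both as the mean of the 2 libraries, with the 11 mitochondrially encoded genes in red; 5 grey points close to them are symbols with reads on mitochondrial transcripts. On the left the spread narrows as reads increase, apart from the mitochondrial transcripts below; on the right the mitochondrial genes lie apart at the lower left.

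Outside the mitochondrial transcripts 3 genes had a mean under 70 nt, near those of mt-Atp6 and mt-Co3. Tcea3, a transcription elongation factor of the TFIIS family, had 55.8 nt in WT 1 (45 reads) and 70.1 nt in WT 2 (48 reads). Psmg1, an assembly chaperone of the proteasome, had 47.0 nt (63 reads) and 83.5 nt (55 reads). Rexo2, an oligoribonuclease, had 85.9 nt (41 reads) and 48.3 nt (24 reads). The libraries differed by 36.5 nt in Psmg1 and by 37.6 nt in Rexo2. For each of these 2 the median was under 50 nt in 1 library and above 80 nt in the other.

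Hspa8, the constitutive Hsp70 chaperone of the cytosol, was short with many reads. Its median was 74.8 nt in WT 1 (1173 reads, 95% interval 72.5 to 78.3 nt) and 80.3 nt in WT 2 (1142 reads, 75.8 to 84.8 nt). Both intervals lay below the middle gene of their library, at a log2 value of -0.45 ± 0.058 (SE, n = 2; limma adjusted p = 2.14e-12). It stayed called in all 12 alternatives that could be run for it, with adjusted p-values from 5.64e-14 to 0.00556, and 99.8% of its reads lay on transcripts that also carried another symbol, so it was not measured on transcripts with 1 symbol. Pfdn6, a prefoldin subunit that hands proteins to the chaperonin, had 72.9 nt (146 reads) and 73.2 nt (152 reads). Esd, esterase D, had 63.6 nt (67 reads) and 79.9 nt (66 reads).

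When the difference had to exceed 0.2 on the log2 scale (limma's treat), 22 genes remained on the short side. These were the 11 mitochondrial messages, the 5 symbols on the same transcripts, and Tcea3, Psmg1, Rexo2, Esd, Pfdn6 and Hspa8. Of the last 6, only Pfdn6 and Hspa8 had 100 reads or more in each library. On the long side 7 remained, namely Rif1, Fubp3, Mt1, Nedd4, Matr3, Jarid2 and Vmn2r97. Vmn2r97, a symbol of the vomeronasal receptor family, had 152.5 nt (78 reads) and 166.5 nt (62 reads), and all of its reads lay on transcripts that also carried another symbol.

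The long end held genes of another kind, most of them with few reads. Mt1, a metallothionein that binds zinc and copper, was the only gene of 150 nt or more with at least 100 reads in each library. Its median was 167.2 nt in WT 1 (402 reads, 95% interval 158.2 to 175.3 nt) and 178.2 nt in WT 2 (180 reads, 170.2 to 189.8 nt), a log2 value of 0.71 ± 0.084 (SE, n = 2; limma adjusted p = 9.90e-15). Tails of 150 nt or more made up 59.2% of its reads in WT 1 and 75% in WT 2. Of its reads 98.8% lay on a transcript that also carried another symbol. Mt2, another metallothionein, had 136.2 nt (518 reads) and 141.7 nt (185 reads) with no read on a shared transcript, and was also called longer (0.39, adjusted p = 6.24e-05).

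Regulators of chromatin and DNA methylation were among the longest. Rif1, which acts in replication timing and at telomeres, had the highest mean, with 208.2 nt in WT 1 (27 reads, 95% interval 118.0 to 255.3 nt) and 172.4 nt in WT 2 (24 reads, 68.6 to 218.9 nt). The interval of WT 2 reached below the middle gene. Jarid2, a subunit of the Polycomb complex PRC2, had 169.0 nt (26 reads) and 158.1 nt (57 reads). Tet1, which oxidises methylcytosine, had 166.6 nt (21 reads) and 156.3 nt (23 reads), and Uhrf1, which brings Dnmt1 to replicated DNA, had 148.3 nt (26 reads) and 160.6 nt (34 reads).

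These 4 were the called members of the list of 13 measured DNA methylation and silencing genes, 30.8% of it beside 5.09% of all genes. The list median was 132.1 nt in WT 1 and 119.2 nt in WT 2, and its log2 value of 0.24 over both libraries was the highest of any list. That rank rested on WT 1, with a list median of 0.37 there and 0.12 in WT 2. In WT 2 the metallothionein and iron list (0.36) and the list of growth response and Id genes (0.32) were among those above it. Hdac1, a histone deacetylase, had 96.2 and 107.5 nt, and Ezh2, the catalytic subunit of PRC2, had 105.2 and 103.2 nt, both near the middle gene. The methylation and silencing list had 2 members with 50 reads or more in each library, and neither was called at that minimum.

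The other genes of the long end differed in function. Fubp3, a nucleic acid-binding protein with KH domains, had 185.8 nt (23 reads) and 176.4 nt (32 reads). Nedd4, a ubiquitin ligase, had 162.6 nt (62 reads) and 173.8 nt (50 reads), and Matr3, an RNA-binding protein of the nuclear matrix, had 175.8 nt (45 reads) and 160.1 nt (68 reads). Chordc1, a partner of Hsp90, had 159.9 nt (23 reads) and 159.8 nt (27 reads), and Lamc1, a laminin chain of the basement membrane, had 149.5 nt (26 reads) and 171.3 nt (22 reads). Rbm25, a splicing regulator, had 212.6 nt (20 reads) and 137.8 nt (29 reads), a gap of 74.8 nt.

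**Figure D5:**
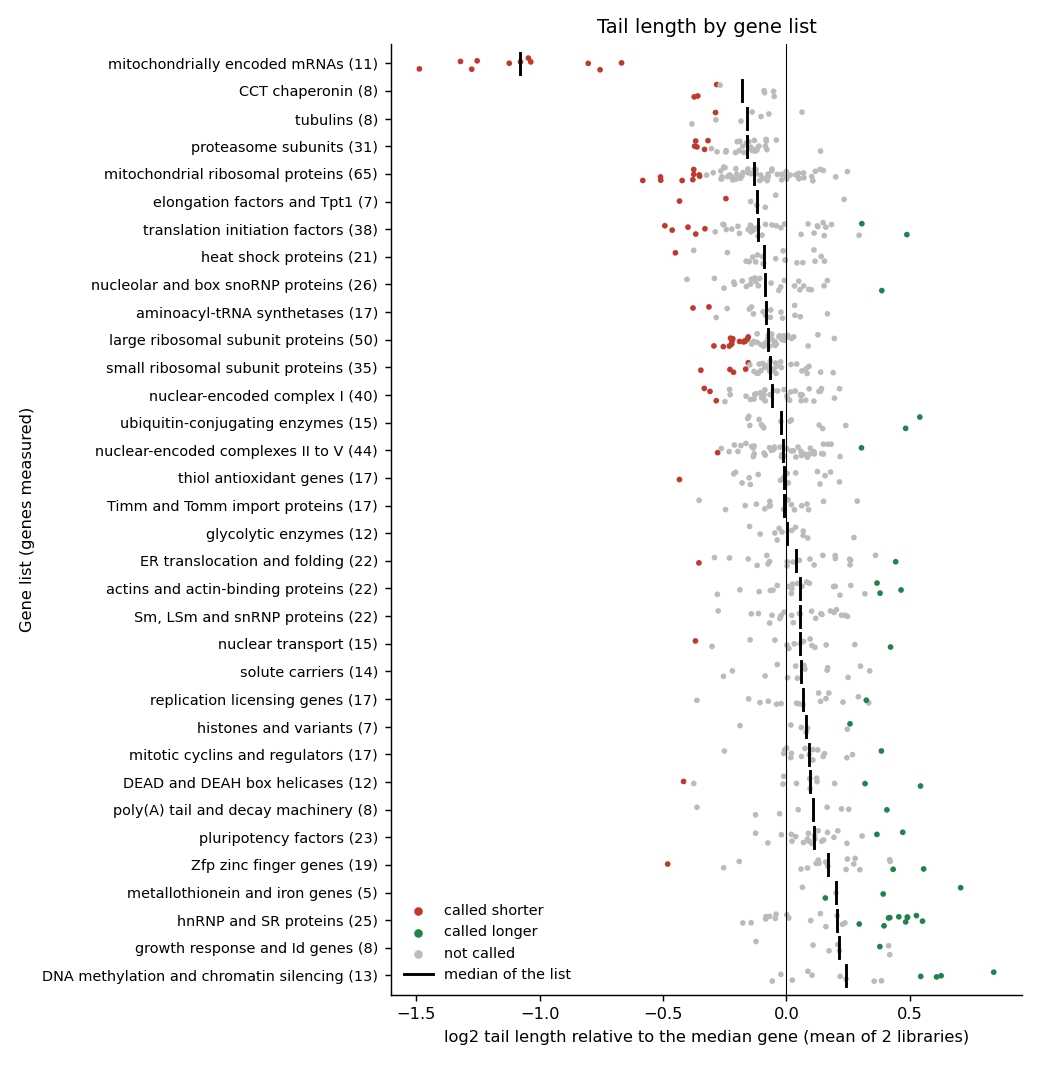
Log2 tail length relative to the middle gene (x axis, mean of 2 libraries) for the measured members of 34 gene lists (y axis, number of genes in brackets), ordered by list median (black bars), with genes called shorter in red, longer in green and others in grey; the vertical scatter within a list has no meaning. The mitochondrially encoded list lies at -1.08 and the other 33 list medians lie between -0.18 and 0.24.

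Of 35 lists of genes with a common function 34 had a measured member, together 706 genes. Of these 706 genes 66 were called shorter, 11 of them mitochondrially encoded, and 39 longer. Among all 2022 genes 131 were shorter (6.48%) and 103 longer (5.09%), and whether the shares differ was not tested. Apart from the mitochondrially encoded list, the list medians stayed between -0.18 and 0.24 on the log2 scale. Shorter calls without any longer call were found in 12 lists, and longer calls without any shorter call in 12.

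Splicing regulators were the list with the most longer genes. Of 25 measured hnRNP and SR proteins, which bind nascent transcripts and direct splice-site choice, 10 were called longer (40% against 5.09% of all genes) and 0 shorter. The 10 were Srsf2, Srsf3, Srsf5, Srsf6, Srsf7, Srsf10, Hnrnpk, Hnrnpl, Hnrnph1 and Syncrip. Among the 8 Srsf genes 6 were called, with a median over the 8 of 149.6 nt in WT 1 and 127.2 nt in WT 2. Among the 14 Hnrnp genes 3 were called, with a median of 105.7 nt in WT 1 and 110.1 nt in WT 2; whether the 2 families differ was not tested.

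Values of single members showed the range. Srsf5 had 162.2 nt in WT 1 (136 reads) and 143.4 nt in WT 2 (71 reads), and Hnrnpk 153.6 nt (130 reads) and 142.5 nt (179 reads). Srsf7 had 167.3 nt in WT 1 but 119.7 nt in WT 2, each from over 100 reads. Hnrnpa1 had 90 nt (291 reads) and 97.4 nt (275 reads), and Hnrnpa2b1 had 96.8 and 94.95 nt; neither passed the test. The median of the list was higher in WT 1 (127.1 nt) than in WT 2 (120.0 nt), opposite to the genes as a whole, and 14 of the 25 members were lower in WT 2 against 34.8% of all genes. From 8 to 11 members were called in 11 of the 13 other settings. The exceptions were 4 of 11 members at a minimum of 100 reads and 0 where a difference over 0.2 was required.

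The core proteins of the spliceosome lay near the middle. Of 22 measured Sm, LSm and other snRNP proteins 0 were called by limma, against 3 at an unadjusted p under 0.05, with list medians of 105.7 nt in WT 1 and 113.5 nt in WT 2. Over all genes 6.48% were called shorter and 5.09% longer. The shortest member of the list, Snrnp25, had 82.5 and 92.6 nt, and its longest by mean, Snrpd3, had 118.6 and 133.0 nt (adjusted p = 0.0710). In the alternatives up to 2 of its members were called longer.

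Genes of protein synthesis lay slightly to the short side. Cytosolic ribosomal proteins gave 85 measured genes, and the large subunit alone made up 18.6% of the reads of WT 1 and 17.2% of WT 2. They had a median log2 value of -0.07. Below the middle gene were 66 of them in WT 1 and 68 in WT 2, and 18 were called shorter (13 of 50 in the large and 5 of 35 in the small subunit, 26.0% and 14.3% against 6.48%) and 0 longer. With the libraries centred on all reads these counts became 7 shorter and 1 longer in the large and 3 shorter and 2 longer in the small subunit. Without the trend on read number 0 large and 1 small subunit genes were called shorter, and on transcripts with 1 symbol 0 of 13 and 0 of 12. Calls were more frequent at high depth, at 25.9% of all 116 genes with 500 reads or more in each library. At that depth 18 of 72 ribosomal protein genes and 4 of 37 other symbols, mitochondrial names left out, were called shorter. Their median log2 values were -0.08 and -0.04. Below the middle gene were 58 and 62 of the 72, and 24 and 19 of the 37, in WT 1 and WT 2.

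The ribosomal protein genes were closely alike. Among the 72 with 500 reads or more in each library the SD of the log2 value across genes was 0.0876. It was 0.197 in the 37 other symbols of that depth whose names do not start with mt-. Those 37 include Gm10925 (-0.74) and Gm28437 (-0.67), whose reads lay on mitochondrial transcripts and which widen that SD. Rps14 was the shortest, with 80.0 nt in WT 1 (1945 reads) and 86.6 nt in WT 2 (1575 reads), followed by Rpl24 with 86.0 nt (1502 reads) and 86.6 nt (1330 reads), and Rpl7a with 84.2 nt (1870 reads) and 93.4 nt (1299 reads). At the other side Rpl12 had 116.4 nt (1862 reads) and 114.9 nt (1337 reads) and was not called. Of the 85 genes 77 had most reads on transcripts that carried another symbol, so values of single ribosomal protein genes are uncertain.

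Messages for ribosomal proteins are known to begin with a run of pyrimidines at the cap, the 5′ terminal oligopyrimidine motif, through which the cell controls their translation. RefSeq promoters (GRCm38.p6) were available for 63 of the 85 genes and searched on the gene's strand for CTTTT or CTTTC within 10 bases on either side of the annotated start. The 2 words cannot overlap except where 1 ends in the first base of the next. Other runs of pyrimidines were not searched, and words before the start were counted. The shares are therefore those of the words and not of the motif. A word was present in 15 of the 63 (23.8%), in 74 of 1531 other measured genes (4.83%) and in 1399 of 27025 promoters of the table (5.18%). Of the 15 genes 4 were called shorter, beside 18 of all 85 ribosomal protein genes and 6.48% of all genes. The median log2 value of the 15, at -0.07, was that of the ribosomal protein genes as a whole. The following show 20 bases on each side of the start, 5′ to 3′, with the words in capitals, for 3 genes called shorter and then for 2 that were not; the build of the tail length table is not stated, so the positions are those of the RefSeq table.
Rpl7a, chr2:26910787-26910826, plus strand: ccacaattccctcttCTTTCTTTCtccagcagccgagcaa
Rpl18, chr7:45718051-45718090, plus strand: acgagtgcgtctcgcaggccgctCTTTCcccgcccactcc
Rpl27a, chr7:109519175-109519214, plus strand: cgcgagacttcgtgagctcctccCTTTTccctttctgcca
Rpl12, chr2:32961692-32961731, plus strand: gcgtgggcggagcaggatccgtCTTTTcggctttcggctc
Rpl35a, chr16:33056462-33056501, plus strand: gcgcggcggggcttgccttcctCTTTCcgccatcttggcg
Rpl18 had medians of 88.9 nt in WT 1 and 92.8 nt in WT 2, Rpl27a 88.4 and 97.4 nt, and Rpl35a 98.9 and 102.8 nt. Rpl12 and Rpl7a, with the highest and the lowest mean of the 5, both held a word next to the start.

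Other parts of the translation machinery had more scattered values. Of 38 initiation factors 5 were called shorter (13.2% against 6.48% of all genes), among them Eif2d with 79.9 and 70.8 nt and Eif3g with 71.1 nt (179 reads) and 82.9 nt (172 reads), and 2 were longer (5.26% against 5.09%). With the arithmetic mean 0 were shorter. The longer ones were Eif4a2, an RNA helicase of cap-dependent initiation, with 121.0 and 182.2 nt, and Eif1, which acts in start codon selection, with 125.0 nt (665 reads) and 136.9 nt (341 reads). Of 7 genes in the list of elongation factors and Tpt1, Eef1d, with 66.8 nt (231 reads) and 92.0 nt (265 reads), and Eef1b2, with 88.7 nt (1975 reads) and 89.9 nt (1663 reads), were called shorter (28.6%). Eef1a1, the factor that brings aminoacyl-tRNA to the ribosome, was not, with 99.3 nt (4752 reads) and 106.2 nt (3167 reads). Of 17 aminoacyl-tRNA synthetases Mars and Gars were called shorter (11.8%), and neither with the arithmetic mean, at 82.0 and 80.8 nt and at 84.4 and 85.9 nt.

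Ribosomal proteins of the mitochondrion, which are encoded in the nucleus, also leaned to the short side. Of 65 measured 9 were called shorter (13.8% against 6.48% of all genes) and 0 longer, with list medians of 95.5 nt in WT 1 and 97.6 nt in WT 2. Mrpl14 had 75.1 and 66.6 nt with 31 reads in each library, and Mrpl1 had 74.5 nt (40 reads) and 74.2 nt (34 reads). The longest by mean, Mrps33, had 126.7 and 124.6 nt and did not pass (adjusted p = 0.222). With the arithmetic mean as summary 3 members were called.

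Nuclear genes of the respiratory chain were near the middle, unlike its mitochondrially encoded messages. Of 40 nuclear complex I genes 3 were called shorter (7.5% against 6.48% of all genes), and 0 with the mean of log2 tail length, with the arithmetic mean or without the trend. Among them was Ndufv1 with 81.8 and 86.3 nt, which lost its call in 5 of 12 settings. The list medians were 95.6 nt in WT 1 and 110.3 nt in WT 2. Complexes II to V had 1 shorter gene of 44, Atp5o with 78.2 and 97.4 nt, and 1 longer, Cox8a with 120.0 nt (418 reads) and 142.3 nt (231 reads). Neither was called with the arithmetic mean or without the trend. The median signs of both lists turned with the centring on all reads. No measured member of either list had a mean as low as the highest mitochondrial message, as the lowest means were 84.1 nt for complex I and 87.8 nt for the others.

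The CCT chaperonin and proteasome lists had medians on the short side. Of the 8 CCT chaperonin subunits, which form 1 ring complex that folds actin and tubulin, 3 were called shorter (37.5% against 6.48% of all genes) and 0 longer. Cct5 had 80.7 nt (220 reads) and 82.7 nt (241 reads), and Tcp1 88.0 nt (174 reads) and 77.4 nt (180 reads). The list medians were 92.2 nt in WT 1 and 91.5 nt in WT 2, and in 6 of the 8, all but Cct3 and Cct8, the mean was under 100 nt. Of 31 proteasome subunits 5 were called shorter (16.1%) and 0 longer, with medians of 90.3 and 99.9 nt, and Psmb7, a catalytic subunit, had 75.4 nt (248 reads) and 89.3 nt (218 reads). Other lists of folding and turnover lay nearer the middle gene: the median log2 value was 0.04 for 22 genes of translocation and folding in the endoplasmic reticulum, with 1 shorter and 1 longer, and -0.02 for 15 ubiquitin-conjugating enzymes. With the arithmetic mean 1 CCT and 2 proteasome genes were called, and 0 of either where a difference over 0.2 was required.

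Messages that define the stem cell state were in the upper middle. Of 23 measured pluripotency factors 2 were called longer, Klf5 with 152.6 nt (30 reads) and 141.1 nt (88 reads) and Tfcp2l1 with 147.6 nt (25 reads) and 126.2 nt (68 reads), and 0 shorter. That is 8.70% against 5.09% of all genes, and Tfcp2l1 was not called with the arithmetic mean or at a minimum of 10 reads. The list medians were 111.8 nt in WT 1 and 119.4 nt in WT 2. Pou5f1, the central transcription factor, had 112.9 nt (677 reads) and 124.9 nt (503 reads), a log2 value of 0.17 with a limma adjusted p of 0.102. Nanog had 113.2 nt (120 reads) and 122.0 nt (149 reads), and Sox2 had 123.6 nt (201 reads) and 120.9 nt (116 reads), with adjusted p-values of 0.346 and 0.146. All 3 were above the middle gene in both libraries.

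Further lists with longer calls were small. Of 5 measured metallothionein and iron genes 3 were longer (60% against 5.09% of all genes), Mt1, Mt2 and Ftl1, a ferritin chain with 112.7 nt (2435 reads) and 123.7 nt (530 reads). The Ftl1 call was lost in 5 of 12 settings. Of 22 actin and actin-binding genes 3 were longer (13.6%), and Actr2, of the Arp2/3 complex, had 158.1 nt (33 reads) and 134.9 nt (50 reads). Ubiquitin-conjugating enzymes had 2 longer of 15 (13.3%), Ube2b with 140.5 and 168.7 nt and Ube2t with 142.9 and 153.1 nt. DEAD and DEAH box helicases had 2 longer of 12 (16.7%), with Ddx3x at 151.9 nt (53 reads) and 156.6 nt (89 reads), and 1 shorter, Ddx1, at 76.0 and 82.7 nt, which was not called with the arithmetic mean.

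Of the tail machinery itself 8 of the 37 listed genes with reads were measured. Papola, the canonical nuclear poly(A) polymerase, was the 1 member called longer (12.5% against 5.09% of all genes), and no member was shorter. Papola had 145.4 nt (46 reads) and 135.4 nt (48 reads), and was not called with the arithmetic mean or at a minimum of 10 reads. Cnot11, of the Ccr4-Not complex, had 89.2 and 75.9 nt (adjusted p = 0.170), and Cnot8, a deadenylase of that complex, had 111.7 and 142.3 nt (adjusted p = 0.214). Of 12 glycolytic enzymes 0 were called by limma and 0 had an unadjusted p under 0.05, and of 17 Timm and Tomm import proteins 0 were called and 2 had one. Over all genes 6.48% were called shorter and 5.09% longer, so 0 or 1 call in lists this small says little about them.

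Tail length had little relation to read number. Across the 2022 genes the Spearman rho between reads and median tail was -0.171 in WT 1 and -0.0690 in WT 2, and without the mitochondrial messages it was -0.161 and -0.0568; these describe genes of the same library and carry no p. Longer calls had a median of 52 reads per library and shorter calls 98. Of the 453 genes with 100 or more reads in each library 61 were called shorter and 19 longer, beside 131 and 103 of all 2022. The 61 include 9 mitochondrial messages and the 18 cytosolic ribosomal protein genes. These counts depend on the zero set by all 2022 genes: with the 453 fitted and centred by themselves, 65 were called shorter and 49 longer.

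The authors' deposited classes of Mov10 targets were close to one another in these wild-type cells. The 286 measured targets with m6A, a methyl mark on RNA, had medians of 106.9 nt in WT 1 and 110.9 nt in WT 2, with 12 shorter and 21 longer (4.20% and 7.34%). The 746 targets without m6A had 101.9 and 109.8 nt, with 48 shorter and 33 longer (6.43% and 4.42%). The 616 non-targets had 100.2 and 107.5 nt, with 37 shorter and 25 longer (6.01% and 4.06%). The 374 genes in no class had 103.2 and 111.1 nt, with 34 shorter and 24 longer (9.09% and 6.42%). Over all genes the shares were 6.48% and 5.09%.

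Some genes had enough reads on 2 transcripts to compare tails within the gene. Of 221 genes with at least 20 reads in each library on both of their most-read transcripts, 12 were called different by limma (5.43%), and the median absolute difference was 0.09 on the log2 scale. The sign was the same in both libraries for 122 of the 221. Without the trend on read number no pair was called by limma, with 18 at an unadjusted p under 0.05. The remaining called pairs, apart from Hnrnpa1 and H3f3b, involved a transcript that carried several symbols, and all but Hspa8 and Wdr89 of these were ribosomal protein genes or pseudogenes by symbol.

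The 2 pairs free of shared symbols were Hnrnpa1 and H3f3b. In Hnrnpa1 the most-read transcript, ENSMUST00000087351.8, had 84.4 nt in WT 1 (186 reads) and 80.1 nt in WT 2 (97 reads), and the second, ENSMUST00000230489.1, had 115.3 nt (47 reads) and 110.8 nt (94 reads), a difference of -0.46 ± 0.12 (SE, n = 2; limma adjusted p = 0.00554). H3f3b, a gene of histone H3.3, had 131.4 and 129.1 nt on its first transcript and 121.5 and 118.7 nt on its second, a difference of 0.12 (adjusted p = 0.0292). The other pairs with the largest differences were Rpl9-ps6 and Rps14 with the second transcript longer, and Rps26-ps1, Rpl36-ps12 and Rpl9 with the first longer.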

How the data were processed

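Per the labels' protocols, 4 µg of total RNA was enriched on oligo(dT) beads and sequenced on a MinION after direct RNA library preparation with barcoded adapters. The submitters' processing notes name minimap2 2.20. The basecaller, tail estimator, genome build and read filters are not given in the sources used here. The deposited table gives 1 tail length in nt per read, as estimated by the authors, with no recorded normalization; it is not a count. Per the file header each read has a transcript, a symbol, a library and 3 class columns.

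The 2 wild-type reads with a tail of 0 were left out. On 909 transcripts more than 1 symbol occurred, with 46.9% of wild-type reads; symbols were used as deposited. Read numbers differed between the libraries by more than counting noise (chi-square per degree of freedom 4.09 over 6234 genes). This cannot show whether they came from separate cultures. The libraries were counted as 2 samples, as labelled. RPM is reads per 1000000 reads of the library.

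Genes with at least 20 reads in each library were tested with limma 3.58.1 in R 4.3.3 (intercept only, with moderated variances that follow the log2 of the mean read number, two-sided). The prior degrees of freedom were estimated as infinite, so errors come from the trend alone and very small p-values should be read with that in mind. The 2 most-read transcripts of a gene were compared in the same way, with 20 reads each in each library. Intervals of medians are exact order-statistic 95% intervals and cover read sampling only. The scripts were tested on simulated data. Tables were handled with Python 3.11.15, pandas 2.3.3, numpy 2.4.6 and scipy 1.17.1.

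The gene lists, the rule for named genes and the members were chosen with earlier results of these data known. Named were Mov10, Pou5f1, Nanog and Sox2, the 10 called genes at each end, the 5 genes with most reads, the 2 shortest and 2 longest of each list, and the 3 largest called transcript differences each way; further names are genes that a printed count refers to, and Rpl35a was chosen after its values were seen. Alternatives changed the summary, the read minimum, the reads, the centring, the trend and the required difference.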

Additional observations from a re-analysis of the deposited data

How the results depend on the processing

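No paired analysis was possible because only the 2 wild-type libraries are described and there is no second group. The 131 shorter calls became 70 with the arithmetic mean, 85 at a minimum of 50 reads, 65 at 100 reads and 22 where a log2 difference over 0.2 was required; the 103 longer calls became 174 with the mean of log2 tail length, 49 at 100 reads, 232 with libraries centred on all reads and 7 over a difference of 0.2. The median over genes of 105.9 nt was 98.5 nt with the mean of log2 tail length and 113.5 nt with the arithmetic mean, and with 1 library left out it ran from 102.4 to 109.4 nt. The Spearman correlation of gene medians between the libraries was 0.66 at 100 reads. The share of genes longer in WT 2 was 61.8% with the mean of log2 tail length, 60.6% at 10 reads, 74.3% at 50 and 80.1% at 100. The 12 transcript pairs became 7 at 50 reads, 4 with the mean of log2 tail length, 2 on transcripts with 1 symbol and 0 without the trend. Of 1823 values of named genes under an alternative, 115 lost a call, 68 gained one and 0 changed direction with a call. The median changed sign in at least 1 setting in 9 lists, all of them within 0.11 of the middle gene. A minimum of 20 reads left 10505 symbols unmeasured, and at 20 to 49 reads the typical exact interval of a median was 55.3 nt wide, so the long end, mostly read under 100 times, is the least certain part.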

Other observations

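Outside the lists described above, 6 called genes are given here that were chosen after their values were seen. Clk1, a kinase that phosphorylates SR proteins, had 164.2 nt in WT 1 (57 reads) and 141.8 nt in WT 2 (40 reads) and was called longer (limma adjusted p = 0.000503). Wtap, a subunit of the m6A writer complex, had 154.4 and 135.2 nt (adjusted p = 0.0149). Lmnb1, a lamin of the nuclear envelope, had 151.0 and 148.8 nt (adjusted p = 0.00100), and Calm2, a calmodulin gene, had 132.9 nt (281 reads) and 136.4 nt (185 reads; adjusted p = 0.00232). On the short side Upp1, uridine phosphorylase, had 80.2 nt (449 reads) and 84.5 nt (132 reads; adjusted p = 0.000661), and Etfb, an electron transfer flavoprotein subunit, had 74.0 nt (192 reads) and 81.4 nt (113 reads; adjusted p = 0.000188).

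Of 28 symbols named for repeats 3 had enough reads, and none was called by limma. L1_Mur2 had 118.7 nt in WT 1 (52 reads) and 142.0 nt in WT 2 (94 reads), with an unadjusted p of 0.00764 and an adjusted p of 0.0598. L1_Mus1 had 93.0 and 126.0 nt, and Lx3B 108.1 nt (478 reads) and 129.7 nt (133 reads). All 3 were longer in WT 2, and at least 99.3% of the reads of each lay on transcripts that also carried another symbol.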
